A study of Mus musculus with 9 samples.

Results

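Anterior foregut cells (AFE) were compared with definitive endoderm (DE), both made in culture from mouse pluripotent stem cells, on 6 Illumina bead arrays (AFE 1 to 3 and DE 1 to 3) of the 9 arrays in the series. The arrays were chosen by their labels, and all genes above background were described. Per the labels, AFE cells had a 129X1/SvJ background, and DE cells, from R1 ES cells, that of a cross of 129X1/SvJ with 129S1/SV-+p+Tyr- cKitlSl-J/+. RNA came from cells sorted by flow cytometry, with gates that are not given in the sources used. The labels carry 1 differentiation protocol for all samples, which names the lines AV3, p2lac40, Sox17GFP and Pax9Venus without assigning them to groups. Cells grown on mouse embryonic fibroblasts with LIF were depleted of fibroblasts and plated on gelatin. From day 2 they received 5 nM GSKiXV, an inhibitor of the kinase GSK3, and 5 µM IDE-1, a small molecule inducer of endoderm. On day 6 they were replated and given 500 nM A83-01, which inhibits receptors of the TGF-beta family that Nodal, activin and TGF-beta use, and 100 nM LDN193189, which inhibits BMP receptors. The labels do not give the day on which either group was collected, nor say in words that only AFE cells had both inhibitors. The comparison therefore covers every step between the collected DE and AFE cells, and the strain, line and sorting of the cells cannot be told apart from it.

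Definitive endoderm is the germ layer that forms from the primitive streak under high Nodal signalling, and it gives rise to the gut tube and its organs. Its anterior part, the foregut, forms the pharynx, thyroid, thymus, lungs, oesophagus and stomach, and in culture it is favoured by blocking TGF-beta family and BMP signalling after endoderm has formed. Nodal signals through activin receptors and Smad2 or Smad3 with the cofactor Foxh1, and it induces its own inhibitors, Lefty1 and Lefty2. BMPs signal through Smad1 or Smad5, with the Id genes and Smad6 among the usual direct targets.

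Levels below are log2 intensities after normalization, and differences are AFE minus DE on that scale, ± the standard error of limma, with n = 3 arrays a group unless DE 3 is left out (then n = 2 for DE). "Rose" and "fell" are used at an adjusted p under 0.05 in limma, over 9383 genes. A gene above background on no array of its lower group is given as "at least" a fold against the lowest level detected on each array. Where a call ended with 1 array left out, the omission with the highest adjusted p is given. Other single omissions ended many of these calls too. The DE arrays detected 13628 to 14000 of 25697 probes and the AFE arrays fewer, 12628 to 13180. Median intensities ran from 115 to 151. DE 1 and DE 2 were nearly alike, with a Pearson correlation across genes of 0.995 and 7 genes 2-fold or more apart. DE 3 correlated with them at 0.930 and 0.927, and 1493 and 1551 genes were at least 2-fold apart. AFE 3 stood off from AFE 1 and 2 less far, at 0.958 and 0.959 with 1015 and 1043 genes apart, and AFE 1 and AFE 2 correlated at 0.986. DE and AFE arrays correlated at 0.877 to 0.899. AFE and DE separated along the first principal component, with 61.2% of the variance. On the second, with 22.0%, DE 1 and DE 2 had scores of 22.9 and 24.0 and DE 3 one of -58.9. Nothing in the labels makes the replicates separate cultures, and the spread behind the p-values may be technical. If DE 1 and DE 2 share a culture, n is below 3.

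**Figure D1:**
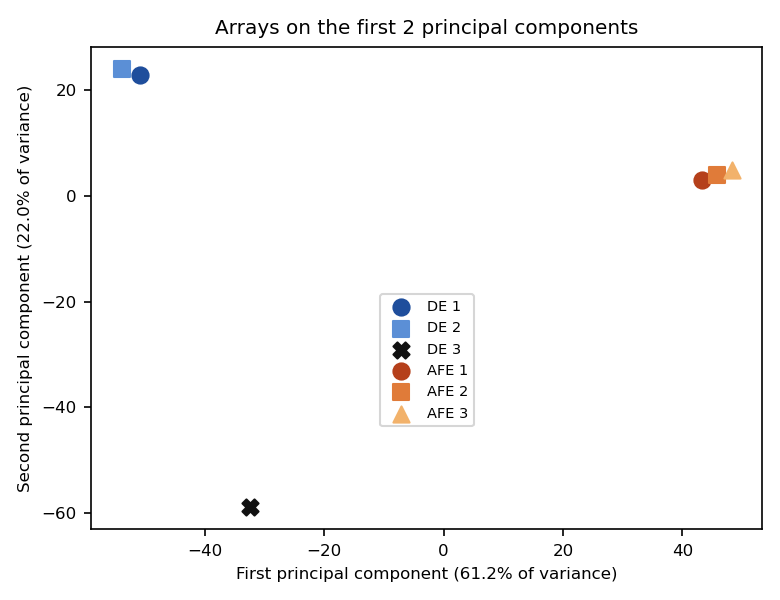
The 6 arrays on the first 2 principal components of the tested genes (axes in component units with their share of variance), one point an array. AFE and DE arrays lie on opposite sides of the first component, and DE 3 lies at -58.9 on the second, away from the other DE arrays.

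Most genes were not called, and calls went in both directions. Of 9383 genes, 936 rose in AFE (9.98%) and 744 fell (7.93%). At least 2-fold were 598 of the rises (6.37%) and 573 of the falls (6.11%). All 3 AFE arrays lay above all 3 DE arrays for 2236 genes (23.8%) and below them for 1578 (16.8%). Scaling mattered to the balance: with arrays scaled to a common median 382 genes rose and 812 fell, with the median of all genes at -0.15 instead of 0.08, and in the authors' processed values 620 rose and 797 fell. Without DE 3, 1506 genes rose (16.1%) and 1265 fell (13.5%), of which 843 (8.98%) and 874 (9.31%) were at least 2-fold. The counts of each gene list below are to be read beside the shares over all genes in the same fit. Leaving out DE 1 instead left 278 rises and 261 falls, and leaving out DE 2 left 247 and 253. Without AFE 1 there were 330 and 264, without AFE 2 308 and 250, and without AFE 3 799 and 634.

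Nearly all calls made with DE 3 held without it. Of 1680 genes called on 6 arrays, 1633 were called in the same direction on the other 5, which is 902 rises and 731 falls. The calls of 34 rises and 13 falls were lost, 604 rises and 534 falls were gained, and no gene was called in opposite directions. The 5-array fit has fewer arrays and more calls, with DE 1 and DE 2 as the only DE arrays left. Among the 843 genes that rose at least 2-fold without DE 3, DE 3 lay on the side away from AFE for 206, nearer to DE 1 and 2 for 329, nearer to AFE for 215 and beyond AFE for 93. For the 874 falls those numbers were 221, 267, 272 and 114. DE 3 was thus not placed uniformly between DE 1 and 2 and AFE.

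**Figure D2:**
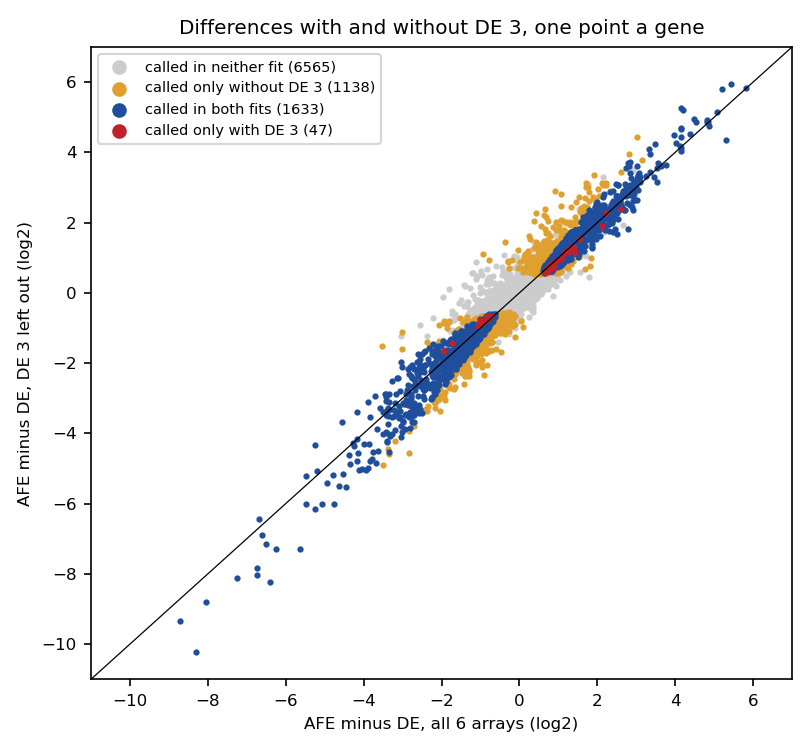
The AFE minus DE difference of each tested gene on all 6 arrays (horizontal axis, log2) and with DE 3 left out (vertical axis, log2); the line marks equality and colours mark the fits that called the gene. The 1633 genes called in both fits lie along the line at both ends, and the 1138 called only without DE 3 lie mostly nearer the centre.

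Transcription factors of the anterior and pharyngeal foregut rose in AFE. Of 14 tested members, of 24 on the array, 9 rose, 2 fell and 3 were not called, with a median difference of 2.50 (2.24 with undetected members at their bound). The fit without DE 3 called 10 higher and 3 lower, with a median of 2.38. Over all genes tested 9.98% rose and 7.93% fell, and the median difference was 0.08. A member detected in 1 group alone entered the test through that group, so these counts describe the tested members and support nothing further. Pax1, a paired box factor of the pharyngeal pouches, was at 4.59, 4.47 and 4.49 on DE 1 to 3 and 9.64, 9.80 and 8.56 on AFE 1 to 3. It was above background on no DE array, and it was at least 18.7-fold higher in AFE (adjusted p = 0.000717). Sox2, which in the gut marks the foregut as well as neural and pluripotent cells, had levels of 5.00, 4.66 and 4.85 on DE 1 to 3 and 9.62, 8.97 and 8.31 on AFE 1 to 3, and it was at least 14.6-fold higher in AFE (adjusted p = 0.00112). DE 3 read like DE 1 and 2 for both genes. The homeobox gene Nkx2-3 is expressed in the pharyngeal floor and gut. It read 5.59, 5.22 and 6.23 on DE 1 to 3 and 12.02, 10.68 and 7.98 on AFE 1 to 3, with AFE 3 the lowest AFE array, and it rose by 4.55 ± 0.94 (adjusted p = 0.0214). Isl1, a LIM homeobox factor of pharyngeal endoderm and cardiac progenitors, was at 8.66, 8.74 and 7.62 on DE 1 to 3 and 11.20, 11.45 and 11.40 on AFE 1 to 3; every AFE array lay above every DE array and it rose by 3.01 ± 0.32 (adjusted p = 0.0025). Irx2, an Iroquois homeobox factor, had levels of 5.33, 5.44 and 6.64 on DE 1 to 3 and 10.35, 9.53 and 10.98 on AFE 1 to 3 and rose by 4.49 ± 0.48 (adjusted p = 0.0025), though another of its probes was not called. Vgll2, a transcription cofactor found in pharyngeal arches and muscle, was at least 17.0-fold higher in AFE (adjusted p = 0.0185), and it too has a probe that was not called. Without DE 3 these genes kept their direction and call: Nkx2-3 rose by 4.86 ± 1.07 (adjusted p = 0.0194) and Isl1 rose by 2.66 ± 0.18 (adjusted p = 0.000338).

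Hhex and Otx2, factors of the earliest anterior endoderm, were lower in AFE, Otx2 by the fit without DE 3. Hhex read 12.71, 12.87 and 11.61 on DE 1 to 3 and 7.83, 7.56 and 7.40 on AFE 1 to 3 and fell by 4.80 ± 0.35 (adjusted p = 0.000793). Otx2 was at 13.77, 13.81 and 10.80 on DE 1 to 3 and 11.21, 9.60 and 11.74 on AFE 1 to 3 and differed by -1.95 ± 0.91 and was not called (adjusted p = 0.178); without DE 3 it fell by 2.94 ± 0.59 (adjusted p = 0.0148). Its DE 3 level was the lowest of the 3 DE arrays. Irx3 had levels of 10.71, 10.91 and 8.34 on DE 1 to 3 and 11.79, 11.42 and 12.24 on AFE 1 to 3 and differed by 1.83 ± 0.67 and was not called (adjusted p = 0.103), while without DE 3 it rose by 1.00 ± 0.27 (adjusted p = 0.035). Of 24 foregut factors on the array 14 were tested, and the others were too dim to test. Pax9, the reporter locus of a line named in the labels, was above background on 2 AFE arrays and no DE array, at levels of 4.43, 4.60 and 4.40 on DE 1 to 3 and 5.55, 5.25 and 6.46 on AFE 1 to 3. Foxe1, a thyroid and oral endoderm factor, was above background on 2 AFE arrays, with 4.61, 4.92 and 4.79 on DE 1 to 3 and 9.14, 6.49 and 5.39 on AFE 1 to 3. The lung and thyroid factor Nkx2-1 was above background on 1 AFE array and the pancreatic factor Pdx1 on none. Tbx2 and Prdm1 went the other way, each above background on 2 DE arrays and no AFE array. Tbx2 read 6.15, 6.51 and 4.56 on DE 1 to 3 and 4.49, 4.60 and 4.45 on AFE 1 to 3. Prdm1 read 5.80, 5.29 and 5.11 on DE 1 to 3 and 4.97, 5.14 and 4.72 on AFE 1 to 3. The call ended with 1 array left out, here with its highest adjusted p, for Nkx2-3 (0.0794 without AFE 2) and Vgll2 (0.0723 without DE 2).

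**Figure D3:**
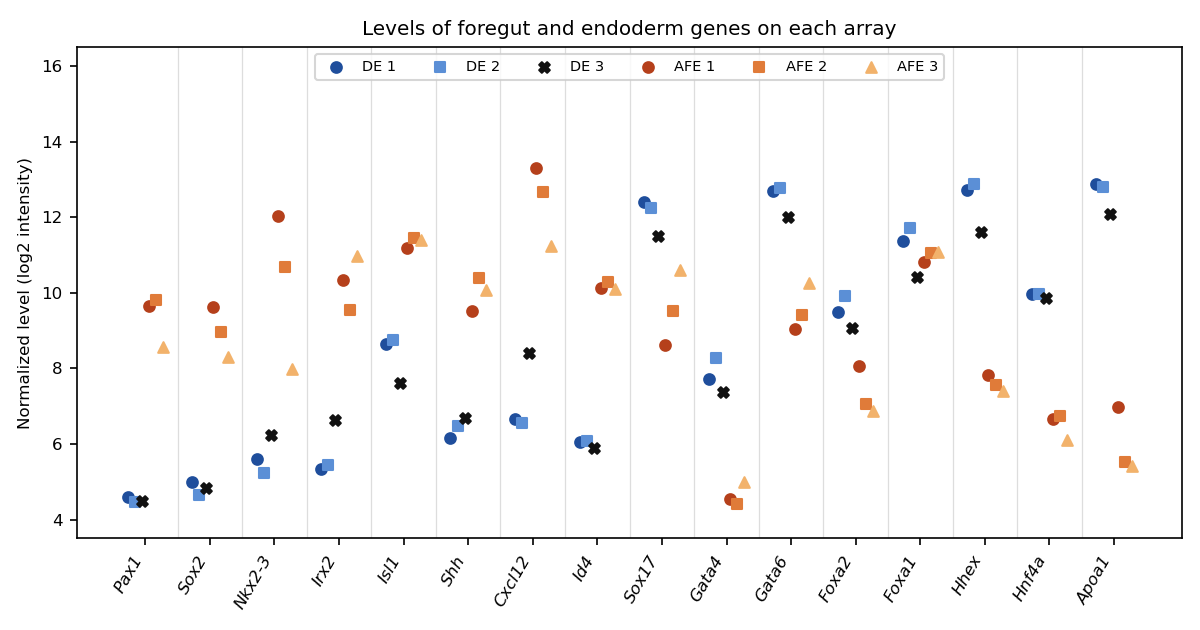
Levels of 16 foregut and endoderm genes on each array (log2 intensity), one point an array, blue and black for DE and orange for AFE. Pax1 and Sox2 are near 5 on the DE arrays and above 8 on the AFE arrays, Hhex and Apoa1 show the reverse order, and the levels of Foxa1 overlap between groups.

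Called genes of a list of endoderm factors were lower in AFE. The list shares Gsc, Mixl1, Cer1 and Hhex with the streak and anterior endoderm genes, and Sox7 with the yolk sac genes. Of 14 tested members, of 14 on the array, 0 rose, 11 fell and 3 were not called, with a median difference of -3.03 (-2.71 with undetected members at their bound). With DE 3 left out the calls were 0 higher and 13 lower, and the median was -3.27. Sox17, needed to form definitive endoderm, read 12.39, 12.23 and 11.51 on DE 1 to 3 and 8.62, 9.51 and 10.60 on AFE 1 to 3 and fell by 2.47 ± 0.50 (adjusted p = 0.0207). It was above background on all 3 AFE arrays. Gata6, a zinc finger factor of endoderm, was at 12.70, 12.77 and 11.99 on DE 1 to 3 and 9.03, 9.42 and 10.25 on AFE 1 to 3 and fell by 2.92 ± 0.37 (adjusted p = 0.00417). Its relative Gata4 had levels of 7.73, 8.27 and 7.39 on DE 1 to 3 and 4.54, 4.42 and 5.00 on AFE 1 to 3, was above background on no AFE array and was at least 5.64-fold lower in AFE (adjusted p = 0.00156). The pioneer factor Foxa2 read 9.50, 9.91 and 9.07 on DE 1 to 3 and 8.05, 7.07 and 6.88 on AFE 1 to 3 and fell by 2.16 ± 0.37 (adjusted p = 0.0119). Every AFE array lay below every DE array for Sox17, Gata6, Gata4 and Foxa2. Foxa1, a pioneer factor of the same family, was at 11.38, 11.70 and 10.41 on DE 1 to 3 and 10.82, 11.05 and 11.08 on AFE 1 to 3 and differed by -0.18 ± 0.34 and was not called (adjusted p = 0.746); without DE 3 it differed by -0.56 ± 0.19 and was not called (adjusted p = 0.0768). Cxcr4, a chemokine receptor used to sort endoderm, depended on DE 3. It had levels of 11.99, 12.19 and 8.39 on DE 1 to 3 and 9.55, 9.98 and 10.57 on AFE 1 to 3, with DE 3 below all 3 AFE arrays, and differed by -0.82 ± 0.97 and was not called (adjusted p = 0.591). Without DE 3 it fell by 2.06 ± 0.31 (adjusted p = 0.00566). With single arrays left out, the calls lost, each with its highest adjusted p, were those of Sox17 (0.0757 without AFE 2) and Foxa2 (0.0544 without AFE 2).

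Called genes of posterior gut, liver and pancreas were lower in AFE on 6 arrays. Of 9 tested members, of 18 on the array, 0 rose, 5 fell and 4 were not called, with a median difference of -1.59. The fit without DE 3 called 1 higher and 4 lower, with a median of -1.53. Hnf4a, a nuclear receptor of liver and visceral endoderm, read 9.97, 9.98 and 9.87 on DE 1 to 3 and 6.67, 6.73 and 6.11 on AFE 1 to 3 and fell by 3.43 ± 0.22 (adjusted p = 0.000631). Ttr, which encodes transthyretin, was at 12.37, 12.37 and 13.03 on DE 1 to 3 and 10.04, 9.51 and 10.40 on AFE 1 to 3 and fell by 2.60 ± 0.30 (adjusted p = 0.00307), and Vil1, encoding the microvillus protein villin, fell by 2.78 ± 0.34 (adjusted p = 0.00381). The groups did not overlap for Hnf4a or Ttr. Alpha-fetoprotein was the named gene whose call needed DE 3: Afp had levels of 7.38, 7.14 and 8.13 on DE 1 to 3 and 5.29, 6.72 and 4.84 on AFE 1 to 3 and fell by 1.94 ± 0.51 (adjusted p = 0.042), and without DE 3 it differed by -1.66 ± 0.54 and was not called (adjusted p = 0.0611). Cdx2, a factor of the hindgut, read 6.90, 6.66 and 6.61 on DE 1 to 3 and 7.98, 9.15 and 7.18 on AFE 1 to 3 and differed by 1.38 ± 0.47 and was not called (adjusted p = 0.0833); without DE 3 it differed by 1.33 ± 0.54 and was not called (adjusted p = 0.112). The groups of Cdx2 and Afp were apart, with 1 AFE array nearer to DE for Afp. Calls that ended when 1 array was left out, with their highest adjusted p, were those of Afp (0.127 without AFE 1).

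Extraembryonic endoderm uses many of the same genes, so its list was read separately. Of 24 tested members, of 27 on the array, 0 rose, 17 fell and 7 were not called, with a median difference of -1.82. With DE 3 left out the calls were 0 higher and 16 lower, and the median was -1.64. DE 3 was at least 2-fold above the mean of DE 1 and 2 for 12 of the 24, with a median of 1.03, and the list stayed low in AFE without that array. Apoa1, the main apolipoprotein of high-density lipoprotein, was at 12.87, 12.80 and 12.08 on DE 1 to 3 and 6.99, 5.52 and 5.41 on AFE 1 to 3 and fell by 6.61 ± 0.46 (adjusted p = 0.000717). Sox7, a relative of Sox17 found in parietal and visceral endoderm, had levels of 8.76, 9.15 and 11.87 on DE 1 to 3 and 4.86, 4.57 and 4.60 on AFE 1 to 3 and was at least 24.7-fold lower in AFE (adjusted p = 0.00659), and Amn, a visceral endoderm receptor subunit, fell by 3.43 ± 0.58 (adjusted p = 0.0121). Secreted carriers moved with them: 0 of 14 tested rose and 10 fell, at a median of -2.04, against 0 and 8 at -2.02 without DE 3. Apoe, an apolipoprotein, fell by 3.22 ± 0.49 (adjusted p = 0.00801), the retinol carrier Rbp4 fell by 2.45 ± 0.48 (adjusted p = 0.0185) and the fatty acid binding protein Fabp3 fell by 4.55 ± 0.86 (adjusted p = 0.0166). The carriers and the yolk sac genes share members such as Apoa1, Rbp4 and Ttr. Leaving out 1 array ended calls, here with the highest adjusted p, for Rbp4 (0.0687 without DE 1) and Fabp3 (0.0584 without AFE 1).

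Most called genes of the Nodal pathway, among them Lefty1, Lhx1 and Gsc, fell in AFE. Of 20 tested members, of 21 on the array, 2 rose, 11 fell and 7 were not called, with a median difference of -2.33 (-2.10 with undetected members at their bound). The rises were Inhba, an activin subunit gene (2.09), and Tgif1 (0.75). Foxh1 (-3.62) and Inhbb (-2.91) were among the falls. The fit without DE 3 called 2 higher and 11 lower, with a median of -2.68. A list of streak and anterior endoderm genes, which shares Lefty1, Lhx1, Gsc, Eomes, Cer1 and Nodal with it, had 0 rises and 13 falls of 15 members (median -4.45), and without DE 3 all 15 tested members fell (median -5.15). On that list DE 3 was at least 2-fold below DE 1 and 2 for all 15 members, so these genes set DE 3 apart in the same direction as AFE. The ligand gene Nodal read 9.82, 10.11 and 7.32 on DE 1 to 3 and 4.86, 5.43 and 5.41 on AFE 1 to 3 and fell by 3.85 ± 0.70 (adjusted p = 0.0148). Lefty1, an extracellular inhibitor that Nodal induces, was at 14.99, 14.95 and 9.33 on DE 1 to 3 and 4.71, 4.96 and 4.71 on AFE 1 to 3. It was above background on no AFE array, every AFE array lay below every DE array, and it was at least 221-fold lower in AFE (adjusted p = 0.0127); without DE 3 it was at least 834-fold lower in AFE (adjusted p = 5.44e-06). Its close relative Lefty2 had levels of 12.53, 12.65 and 7.29 on DE 1 to 3 and 4.42, 4.43 and 4.41 on AFE 1 to 3 and was at least 46.1-fold lower in AFE (adjusted p = 0.0225). Their sequences are alike, and cross-hybridization between the pair was not tested. Tdgf1, the Nodal coreceptor, read 8.75, 8.19 and 5.70 on DE 1 to 3 and 4.65, 5.17 and 4.73 on AFE 1 to 3 and was at least 4.75-fold lower in AFE (adjusted p = 0.0462). All 4 genes were highest on DE 1 and 2, lower on DE 3 and lowest on AFE. On 5 arrays the calls lost, each with its highest adjusted p, were those of Nodal (0.0565 without DE 1), Lefty2 (0.0766 without DE 2) and Tdgf1 (0.149 without DE 2).

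Target factors of Nodal fell with the ligand. Gsc, a homeobox factor of the organizer, was at 13.72, 13.28 and 10.33 on DE 1 to 3 and 7.32, 4.69 and 5.11 on AFE 1 to 3 and fell by 6.74 ± 1.02 (adjusted p = 0.0081). Lhx1, a LIM homeobox factor of the same region, had levels of 12.82, 12.78 and 9.02 on DE 1 to 3 and 5.01, 4.83 and 4.56 on AFE 1 to 3 and was at least 75.6-fold lower in AFE (adjusted p = 0.00656). Eomes, the T-box factor that specifies endoderm in the streak, read 11.80, 11.57 and 8.70 on DE 1 to 3 and 4.37, 4.58 and 4.35 on AFE 1 to 3 and was at least 41.9-fold lower in AFE (adjusted p = 0.00395). For these 3 genes DE 3 lay between the other DE arrays and AFE. Cer1, a secreted antagonist of Nodal, BMP and Wnt made by anterior endoderm, was at 11.71, 11.49 and 6.85 on DE 1 to 3 and 4.30, 4.30 and 4.53 on AFE 1 to 3 and was at least 26.3-fold lower in AFE (adjusted p = 0.0239). Skil, a Smad corepressor and direct target of Smad3, had levels of 10.82, 10.76 and 10.34 on DE 1 to 3 and 8.63, 8.78 and 9.25 on AFE 1 to 3 and fell by 1.76 ± 0.24 (adjusted p = 0.00581). Fst, the activin trap follistatin, read 9.11, 9.25 and 11.06 on DE 1 to 3 and 7.0, 6.82 and 9.75 on AFE 1 to 3 and differed by -1.95 ± 0.87 and was not called (adjusted p = 0.163); without DE 3 it differed by -1.34 ± 0.86 and was not called (adjusted p = 0.286). The call ended with 1 array left out, here with its highest adjusted p, for Cer1 (0.0842 without DE 2).

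The promoter windows of 4 target factors that fell together are shown because Smad binding motifs were looked for in them. Each is the 250 bases before the annotated start, from RefSeq on GRCm38.p6, 5' to 3' on the gene's strand, with CAGAC in capitals. They lie at chr11:84525535-84525784, minus strand (Lhx1), chr12:104473237-104473486, minus strand (Gsc), chr9:118477939-118478188, plus strand (Eomes) and chr4:82885152-82885401, minus strand (Cer1).
Lhx1: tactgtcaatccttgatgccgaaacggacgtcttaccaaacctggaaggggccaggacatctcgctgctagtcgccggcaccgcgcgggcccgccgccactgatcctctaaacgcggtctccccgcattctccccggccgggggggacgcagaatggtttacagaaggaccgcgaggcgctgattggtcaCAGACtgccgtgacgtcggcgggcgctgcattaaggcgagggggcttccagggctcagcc
Gsc: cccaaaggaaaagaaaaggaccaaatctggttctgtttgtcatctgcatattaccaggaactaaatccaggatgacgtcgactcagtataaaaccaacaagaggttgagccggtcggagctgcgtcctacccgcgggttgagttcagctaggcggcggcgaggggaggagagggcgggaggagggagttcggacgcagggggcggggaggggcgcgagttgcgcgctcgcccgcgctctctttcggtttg
Eomes: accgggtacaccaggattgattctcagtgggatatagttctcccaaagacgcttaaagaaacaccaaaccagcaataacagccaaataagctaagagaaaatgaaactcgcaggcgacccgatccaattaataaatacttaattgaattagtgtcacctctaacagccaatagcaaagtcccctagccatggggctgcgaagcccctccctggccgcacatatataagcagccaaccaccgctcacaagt
Cer1: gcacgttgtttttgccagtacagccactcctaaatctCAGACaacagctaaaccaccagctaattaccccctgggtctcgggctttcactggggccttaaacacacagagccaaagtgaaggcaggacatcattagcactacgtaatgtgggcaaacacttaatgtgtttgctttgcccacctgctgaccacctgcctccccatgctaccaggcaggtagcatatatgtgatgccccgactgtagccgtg
The searched motifs were CAGAC, a core bound by Smad3 and Smad4, GGCGCC, a GC-rich Smad site, and TGTNNATT, a form of the Foxh1 site, each on both strands. Lhx1 and Cer1 hold 1 CAGAC each, Gsc and Eomes hold none, and none of the 4 holds either other motif. Of 32851 mouse promoter windows of this length, 42.2% hold CAGAC, 9.59% hold GGCGCC and 10.9% hold TGTNNATT. A match describes letters and is no binding site.

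Genes that TGF-beta itself induces, and matrix genes, were called in both directions. Of 17 tested, 3 rose and 3 fell, with a median of 0.66 that turned negative with a stricter filter on dim probes; without DE 3, 6 rose and 3 fell. The ligand gene Tgfb1 was at 8.69, 9.26 and 9.25 on DE 1 to 3 and 5.87, 5.26 and 6.49 on AFE 1 to 3 and fell by 3.19 ± 0.34 (adjusted p = 0.0025), and the coreceptor Tgfbr3 fell by 1.81 ± 0.40 (adjusted p = 0.0254). Itgb6, an integrin subunit that activates latent TGF-beta, had levels of 4.95, 4.94 and 5.37 on DE 1 to 3 and 7.08, 8.61 and 8.90 on AFE 1 to 3 and rose by 3.11 ± 0.47 (adjusted p = 0.00785), though another probe of it was not called. Ccn2, a matrix protein induced by TGF-beta and YAP, read 9.23, 9.30 and 11.03 on DE 1 to 3 and 10.32, 11.20 and 12.31 on AFE 1 to 3 and differed by 1.42 ± 0.64 and was not called (adjusted p = 0.167); without DE 3 it rose by 2.02 ± 0.54 (adjusted p = 0.0343). Tgfbi, a matrix protein named for its induction by TGF-beta, changed sign with DE 3. It was at 6.45, 6.17 and 11.78 on DE 1 to 3 and 7.26, 7.62 and 8.39 on AFE 1 to 3 and differed by -0.38 ± 1.41 and was not called (adjusted p = 0.873); without DE 3 it rose by 1.45 ± 0.35 (adjusted p = 0.0246). DE 3 was the highest of all 6 arrays. With single arrays left out, the calls lost, each with its highest adjusted p, were those of Tgfbr3 (0.0915 without DE 2).

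BMP pathway genes moved in both directions: 5 of 21 tested members rose and 5 fell, around a median of 0.07 that was negative with median scaling, cyclic loess, the authors' values, array weights, and with DE 3 and AFE 3 both left out; without DE 3, 6 rose and 7 fell. Id genes encode inhibitors of basic helix-loop-helix factors. Id1 had levels of 10.61, 10.50 and 9.96 on DE 1 to 3 and 11.33, 12.06 and 11.64 on AFE 1 to 3 and rose by 1.32 ± 0.27 (adjusted p = 0.0216). Id2 read 9.02, 8.43 and 9.17 on DE 1 to 3 and 11.38, 11.87 and 11.05 on AFE 1 to 3 and rose by 2.56 ± 0.29 (adjusted p = 0.003). For Id4 the levels were 6.04, 6.09 and 5.89 on DE 1 to 3 and 10.12, 10.27 and 10.10 on AFE 1 to 3, and it rose by 4.16 ± 0.17 (adjusted p = 0.00022). Id3 was at 10.21, 10.27 and 9.68 on DE 1 to 3 and 9.97, 10.19 and 10.21 on AFE 1 to 3 and differed by 0.07 ± 0.22 and was not called (adjusted p = 0.85), so 3 of 4 Id genes rose and none fell. Smad6, the inhibitory Smad of this pathway, had levels of 9.04, 8.86 and 7.71 on DE 1 to 3 and 7.74, 7.94 and 7.94 on AFE 1 to 3 and differed by -0.66 ± 0.36 and was not called (adjusted p = 0.235); without DE 3 it fell by 1.09 ± 0.18 (adjusted p = 0.00716). Bmper, a secreted modulator of BMP, read 10.83, 10.89 and 9.35 on DE 1 to 3 and 6.45, 6.48 and 5.12 on AFE 1 to 3 and fell by 4.34 ± 0.53 (adjusted p = 0.00395). Dlx3, a homeobox gene of surface ectoderm, rose by 3.05 ± 0.33 (adjusted p = 0.0025). The other called rise was Bmp7 (2.39). The other called falls were Nog (-2.46), Bmp2 (-1.19), Smad1 (-1.13) and Bmpr2 (-0.70). Msx2, a homeobox target of BMP, differed by -0.08 ± 0.45 and was not called (adjusted p = 0.92), and Bambi, a pseudoreceptor, was above background on no array. Calls that ended when 1 array was left out, with their highest adjusted p, were those of Id1 (0.0782 without AFE 2).

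**Figure D4:**
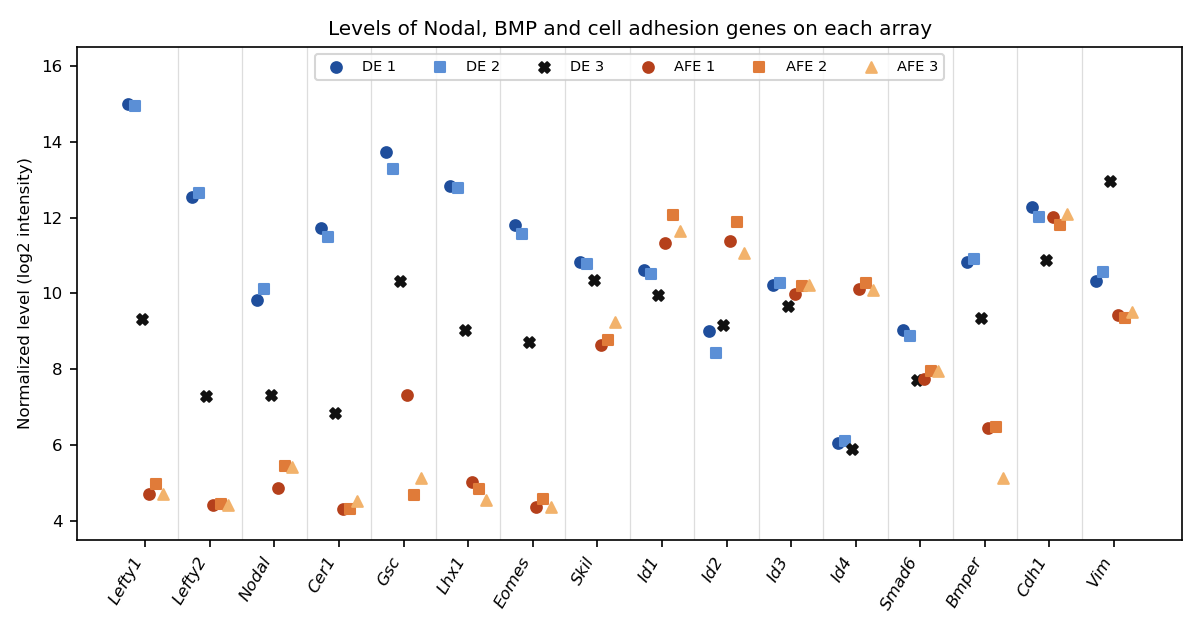
Levels of 16 Nodal, BMP and cell adhesion genes on each array (log2 intensity), one point an array. Lefty1, Lefty2, Cer1, Gsc, Lhx1 and Eomes are high on DE 1 and 2, intermediate on DE 3 and low on AFE, Id1, Id2 and Id4 are higher on AFE, and Cdh1 and Id3 overlap between groups.

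Wnt pathway genes had rises and falls. Of 22 tested members, of 28 on the array, 8 rose, 5 fell and 9 were not called, with a median difference of 0.80. With DE 3 left out the calls were 10 higher and 7 lower, and the median was 0.59. Wnt6, a ligand of epithelia, was at 4.43, 4.72 and 4.67 on DE 1 to 3 and 8.85, 9.69 and 10.46 on AFE 1 to 3, was undetected on DE and was at least 23.7-fold higher in AFE (adjusted p = 0.000901). Secreted Wnt antagonists fell: Sfrp5 was at least 17.0-fold lower in AFE (adjusted p = 0.00244), Sfrp1 fell by 4.11 ± 0.78 (adjusted p = 0.0165) and Dkk1 fell by 3.76 ± 0.95 (adjusted p = 0.0377). These antagonists are products of anterior endoderm. Lgr5, a receptor and Wnt target, had levels of 8.11, 7.97 and 6.55 on DE 1 to 3 and 6.15, 6.52 and 5.87 on AFE 1 to 3 and differed by -1.36 ± 0.43 and was not called (adjusted p = 0.0706), and without DE 3 it fell by 1.88 ± 0.24 (adjusted p = 0.00283). Fzd8, a Wnt receptor, differed by -2.17 ± 0.77 and was not called (adjusted p = 0.0976); without DE 3 it fell by 3.14 ± 0.36 (adjusted p = 0.00206). Leaving out 1 array ended calls, here with the highest adjusted p, for Sfrp1 (0.06 without DE 1) and Dkk1 (0.122 without AFE 2).

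Among FGF genes single ligands stood out. The list had 3 rises and 2 falls among 19 tested, at a median of -0.17, against 3 and 5 at -0.27 without DE 3, and the sign of the 6-array median turned without AFE 3 and with array weights. Over all genes tested 9.98% rose and 7.93% fell on 6 arrays. Fgf5, a ligand of primed pluripotent cells and epiblast, read 12.10, 12.12 and 10.31 on DE 1 to 3 and 5.49, 4.72 and 4.80 on AFE 1 to 3 and fell by 6.51 ± 0.51 (adjusted p = 0.00097). Fgf10, which lung and pharyngeal mesoderm make, fell by 3.20 ± 0.58 (adjusted p = 0.0151), while Fgf15 rose by 1.16 ± 0.31 (adjusted p = 0.0433) and the receptor Fgfr1 rose by 1.43 ± 0.34 (adjusted p = 0.0338). Fgf8 and Spry4, an ERK feedback inhibitor, were not called on 6 arrays and were called without DE 3. Fgf8 was at 12.58, 12.62 and 9.14 on DE 1 to 3 and 10.58, 10.29 and 7.75 on AFE 1 to 3 and differed by -1.91 ± 1.11 and was not called (adjusted p = 0.271); without DE 3 it fell by 3.05 ± 0.82 (adjusted p = 0.0353). Spry4 differed by -1.79 ± 0.72 and was not called (adjusted p = 0.127), and without DE 3 it fell by 2.70 ± 0.32 (adjusted p = 0.00224). On 5 arrays the calls lost, each with its highest adjusted p, were those of Fgf10 (0.0638 without AFE 2), Fgf15 (0.154 without DE 2) and Fgfr1 (0.118 without DE 2).

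The hedgehog ligand Shh, made by foregut and pharyngeal endoderm, rose. It had levels of 6.17, 6.47 and 6.69 on DE 1 to 3 and 9.53, 10.38 and 10.08 on AFE 1 to 3 and rose by 3.55 ± 0.27 (adjusted p = 0.000901); every AFE array lay above every DE array. Of the hedgehog genes, 4 of 9 tested rose and 1 fell, at a median of 0.58, against 4 and 1 at 0.80 without DE 3. Hhip, a hedgehog-binding protein, rose by 1.50 ± 0.21 (adjusted p = 0.00601) and Disp1, needed to release the ligand, rose by 1.06 ± 0.17 (adjusted p = 0.00976), whereas Foxf2, a factor of gut mesenchyme, was at least 2.43-fold lower in AFE (adjusted p = 0.00899). The target genes Gli1 and Ptch1 were above background on no array. Retinoic acid genes were mixed, in that 6 of 13 tested rose and 3 fell, at a median of 1.17, against 7 and 3 at 1.27 without DE 3. Crabp1 and Crabp2, which bind retinoic acid in the cell, rose: Crabp1 read 7.66, 7.70 and 6.61 on DE 1 to 3 and 9.67, 9.73 and 9.96 on AFE 1 to 3 and rose by 2.46 ± 0.32 (adjusted p = 0.0048), and Crabp2 rose by 2.53 ± 0.52 (adjusted p = 0.0213). The homeobox cofactor Meis2 was at 6.70, 6.79 and 9.98 on DE 1 to 3 and 11.79, 12.08 and 12.07 on AFE 1 to 3 and rose by 4.16 ± 0.83 (adjusted p = 0.0194). Of Notch genes, 1 of 14 tested rose and 0 fell, at a median of -0.46, against 3 and 4 at -0.30 without DE 3. Hey2, a Notch target, rose by 1.50 ± 0.26 (adjusted p = 0.013). The receptor gene Notch1 differed by 0.73 ± 1.01 and was not called (adjusted p = 0.652), and without DE 3 it rose by 2.03 ± 0.30 (adjusted p = 0.00493). The call ended with 1 array left out, here with its highest adjusted p, for Crabp2 (0.076 without AFE 2), Meis2 (0.0726 without AFE 2) and Hey2 (0.057 without AFE 2).

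Epithelial junction genes that were called were mostly higher in AFE, and Cdh1 was not called. Of 33 tested members, of 41 on the array, 13 rose, 1 fell and 19 were not called, with a median difference of 0.87. The fit without DE 3 called 15 higher and 4 lower, with a median of 0.53. DE 3 was at least 2-fold below DE 1 and 2 for 18 of the 33 (median -1.01), and the part of that array in the list's calls was not tested beyond leaving it out. The E-cadherin gene Cdh1 had levels of 12.29, 12.002 and 10.88 on DE 1 to 3 and 12.02, 11.80 and 12.08 on AFE 1 to 3 and differed by 0.24 ± 0.37 and was not called (adjusted p = 0.683); without DE 3 it differed by -0.18 ± 0.19 and was not called (adjusted p = 0.524). Cldn4, a tight junction claudin, read 9.27, 9.24 and 7.60 on DE 1 to 3 and 11.74, 11.37 and 11.72 on AFE 1 to 3 and rose by 2.91 ± 0.45 (adjusted p = 0.00899). Grhl2, a master factor of epithelial barrier genes, was at 7.78, 7.74 and 4.82 on DE 1 to 3 and 9.64, 9.63 and 9.45 on AFE 1 to 3 and rose by 2.80 ± 0.76 (adjusted p = 0.0458). For Cldn4 and Grhl2 every AFE array lay above every DE array, and DE 3 was the lowest of all. Grhl3 and Perp, too dim to test, went the other way, each above background on 2 DE arrays and no AFE array. Grhl3 read 6.72, 6.48 and 4.51 on DE 1 to 3 and 4.37, 4.75 and 4.41 on AFE 1 to 3. Prom1, also untested, was above background on 1 AFE array and no DE array. Ovol2 was not called on 6 arrays and fell without DE 3. The membrane protease Prss8 rose by 2.65 ± 0.26 (adjusted p = 0.00212) and the keratin Krt23 was at least 4.92-fold lower in AFE (adjusted p = 0.00993). Krt8 and Krt18 form the simple epithelial keratin pair. Krt8 differed by -1.06 ± 0.34 and was not called (adjusted p = 0.0737), and without DE 3 it fell by 1.46 ± 0.17 (adjusted p = 0.00209). Krt18 differed by -0.30 ± 0.28 and was not called (adjusted p = 0.499); without DE 3 it differed by -0.58 ± 0.19 and was not called (adjusted p = 0.0667). Of apical and polarity genes, 2 of 16 tested rose and 1 fell, at a median of -0.09, against 2 and 6 at -0.28 without DE 3. With single arrays left out, the calls lost, each with its highest adjusted p, were those of Grhl2 (0.132 without AFE 2). That call was lost without any single array other than DE 3.

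Surface ectoderm and stratified epithelium genes were called in 1 direction, since 6 of 10 tested rose and 0 fell, at a median of 2.21, against 6 and 0 at 2.26 without DE 3. Over all genes tested 9.98% rose and 7.93% fell. Of the 10, 3 were undetected in 1 group and entered the test through the other, and with these at their bound the median was 1.96. Wnt6 and Dlx3 also belong to the Wnt and BMP lists. Trp63, a p53 relative of basal epithelial cells, had levels of 4.50, 4.58 and 4.49 on DE 1 to 3 and 7.45, 6.69 and 7.20 on AFE 1 to 3 and was at least 4.03-fold higher in AFE (adjusted p = 0.00156). Cdh3, P-cadherin, read 7.12, 7.09 and 6.07 on DE 1 to 3 and 9.43, 9.40 and 9.51 on AFE 1 to 3 and rose by 2.69 ± 0.31 (adjusted p = 0.00294). On all 3 AFE arrays both lay above DE, and DE 3 was the lowest for Cdh3. The stratified keratin Krt15 was tested and not called. Of 17 members on the array, those not tested include Krt5, Krt14, Krt6a, Ivl and Dlx5, which were above background on no array. Krt17, also untested, was above background on 1 array of each group. Perp, untested too, went the other way, above background on 2 DE arrays and no AFE array. It read 5.89, 5.60 and 4.62 on DE 1 to 3 and 4.63, 4.58 and 4.77 on AFE 1 to 3. Basement membrane genes split, as 4 of 18 tested rose and 5 fell, at a median of -0.42, against 5 and 6 at -0.29 without DE 3. The laminin chains Lama1 and Lamc1 and the linker Nid1, which parietal endoderm makes in bulk, fell: Nid1 was at 10.00, 9.94 and 12.38 on DE 1 to 3 and 6.91, 6.12 and 7.60 on AFE 1 to 3 and fell by 3.90 ± 0.70 (adjusted p = 0.0145), Lama1 fell by 2.46 ± 0.60 (adjusted p = 0.0341) and Lamc1 fell by 2.43 ± 0.33 (adjusted p = 0.00561). Itgb4, the hemidesmosome integrin, rose by 2.59 ± 0.23 (adjusted p = 0.00153), with another probe not called. Col18a1 differed by 3.03 ± 1.09 and was not called (adjusted p = 0.0992); without DE 3 it rose by 4.45 ± 0.25 (adjusted p = 0.00018). Calls that ended when 1 array was left out, with their highest adjusted p, were those of Nid1 (0.0594 without AFE 2) and Lama1 (0.103 without AFE 2).

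Mesenchymal transition genes were called in both directions. Of them, 1 of 12 tested rose and 3 fell, at a median of 0.04, against 3 and 4 at 0.25 without DE 3; the sign of the 6-array median turned in 8 of 20 other settings, including median scaling and the authors' values. Snai1, a repressor of Cdh1, had levels of 8.03, 7.90 and 10.10 on DE 1 to 3 and 5.97, 6.19 and 5.41 on AFE 1 to 3 and fell by 2.82 ± 0.59 (adjusted p = 0.0223). Zeb1, a repressor of the same kind, read 7.74, 7.54 and 10.27 on DE 1 to 3 and 6.26, 5.86 and 5.60 on AFE 1 to 3 and fell by 2.61 ± 0.70 (adjusted p = 0.0439), and N-cadherin, Cdh2, fell by 2.45 ± 0.36 (adjusted p = 0.00728). Prrx1, a mesenchymal homeobox factor, rose by 1.99 ± 0.37 (adjusted p = 0.0164). The other tested members, among them Zeb2, Twist1 and Twist2, were not called on 6 arrays. Over all genes tested 9.98% rose and 7.93% fell. The intermediate filament gene Vim was at 10.32, 10.56 and 12.97 on DE 1 to 3 and 9.43, 9.36 and 9.50 on AFE 1 to 3. It differed by -1.85 ± 0.66 and was not called (adjusted p = 0.0964), and without DE 3 it fell by 1.01 ± 0.18 (adjusted p = 0.00882). DE 3 had the highest level of all arrays for Snai1, Zeb1 and Vim, and over these 12 genes its median was 1.38 above DE 1 and 2. Leaving out 1 array ended calls, here with the highest adjusted p, for Snai1 (0.068 without AFE 1), Zeb1 (0.122 without AFE 2) and Prrx1 (0.0652 without DE 1).

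Markers of blood and endothelium set DE 3 apart. Over all 31 such genes on the array the mean level was 5.82, 5.78 and 9.10 on DE 1 to 3 and 6.32, 5.80 and 5.46 on AFE 1 to 3, with 13, 14, 28, 17, 14 and 9 of them above background. Emcn, an endothelial sialomucin, had levels of 4.99, 4.73 and 13.17 on DE 1 to 3 and 5.38, 4.52 and 4.43 on AFE 1 to 3, and Pecam1, an adhesion molecule of the same cells, 4.78, 4.61 and 9.88 on DE 1 to 3 and 4.83, 4.61 and 4.61 on AFE 1 to 3. Both were near background on the other DE arrays, and fewer cells of a type and less RNA per cell cannot be told apart in such bulk samples. Plvap, a protein of endothelial fenestrae, read 6.62, 6.35 and 12.60 on DE 1 to 3 and 5.81, 4.63 and 4.56 on AFE 1 to 3. It differed by -3.52 ± 1.57 and was not called (adjusted p = 0.163), and without DE 3 it fell by 1.51 ± 0.41 (adjusted p = 0.0362). Of 19 tested members, 1 rose and 3 fell (median -0.84), and with DE 3 left out 2 rose and 5 fell (median -0.23); the sign turned with DE 3 and AFE 3 both left out. Flt1, a VEGF receptor, was at 12.85, 13.08 and 11.72 on DE 1 to 3 and 7.41, 8.23 and 9.56 on AFE 1 to 3 and fell by 4.15 ± 0.59 (adjusted p = 0.00638); without DE 3 it fell by 4.56 ± 0.59 (adjusted p = 0.00304). Etv2, which starts the endothelial programme, fell by 3.71 ± 0.66 (adjusted p = 0.014) and, without DE 3, fell by 2.94 ± 0.30 (adjusted p = 0.00147). Runx1, needed for blood stem cells, fell by 2.30 ± 0.28 (adjusted p = 0.00398). Flt1, Etv2 and Runx1 thus fell with and without DE 3, and Kdr, a VEGF receptor of the same lineage, rose by 1.00 ± 0.20 (adjusted p = 0.0182). On 5 arrays the calls lost, each with its highest adjusted p, were those of Etv2 (0.0501 without AFE 1) and Kdr (0.0891 without DE 2).

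Other mesoderm markers were called less uniformly. The cardiac and smooth muscle list had 2 rises and 0 falls among 10 tested, at a median of 1.34, against 4 and 2 at 1.47 without DE 3. Myh6, a cardiac myosin heavy chain, had levels of 4.70, 4.36 and 4.92 on DE 1 to 3 and 6.87, 5.37 and 7.44 on AFE 1 to 3 and was at least 2.74-fold higher in AFE (adjusted p = 0.044). Actc1, cardiac actin, read 5.72, 5.62 and 7.48 on DE 1 to 3 and 8.05, 8.45 and 11.74 on AFE 1 to 3, with AFE 3 the highest, and differed by 3.14 ± 1.00 and was not called (adjusted p = 0.0726); without DE 3 it rose by 3.77 ± 1.05 (adjusted p = 0.0401). Fibroblast genes, which feeder cells also express, showed 1 rise and 1 fall among 14 tested, at a median of 0.86, against 4 and 1 at 1.13 without DE 3. Pdgfra, a growth factor receptor of mesenchyme and primitive endoderm, was at 10.38, 10.33 and 11.38 on DE 1 to 3 and 7.31, 7.43 and 5.80 on AFE 1 to 3 and fell by 3.85 ± 0.50 (adjusted p = 0.00471), whereas Loxl1 rose by 2.78 ± 0.70 (adjusted p = 0.0383). Col1a1, a collagen of fibroblasts, differed by 1.78 ± 0.73 and was not called (adjusted p = 0.136); without DE 3 it differed by 2.02 ± 0.85 and was not called (adjusted p = 0.122). Of 27 Hox genes on the array 7, 4 and 21 were above background on DE 1 to 3 and 5, 7 and 4 on AFE 1 to 3, and of 7 tested none was called by limma in either fit, with 0 at an unadjusted p under 0.05 on 6 arrays and 1 without DE 3. The call ended with 1 array left out, here with its highest adjusted p, for Myh6 (0.142 without DE 2) and Loxl1 (0.119 without DE 2).

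Neural and pluripotency genes rose at shares near the 9.98% over all genes and fell at shares above the 7.93% over all genes. Of neural genes, 1 of 9 tested rose and 3 fell, at a median of -0.72, against 2 and 4 at -0.98 without DE 3; the rise was Sox2. Nes, an intermediate filament of neural progenitors, fell by 2.01 ± 0.29 (adjusted p = 0.00638), and Stmn2, a neuronal protein, was at least 2.32-fold lower in AFE (adjusted p = 0.00562). Of pluripotency genes, 2 of 20 tested rose and 4 fell, at a median of -0.84, against 2 and 7 at -0.48 without DE 3. Pou5f1, the core factor Oct4, had levels of 5.93, 5.68 and 6.32 on DE 1 to 3 and 5.28, 7.06 and 5.89 on AFE 1 to 3 and differed by 0.10 ± 0.45 and was not called (adjusted p = 0.896); without DE 3 it differed by 0.27 ± 0.50 and was not called (adjusted p = 0.712). Klf4, a naive state factor, fell by 1.95 ± 0.53 (adjusted p = 0.0465), although another probe of it was not called. Trophoblast genes had 0 rises and 2 falls among 8 tested, at a median of -0.10, against 0 and 4 at -0.80 without DE 3, a median whose sign turned with a stricter filter and without DE 1 or DE 2. Gata3, a factor of trophoblast and pharyngeal pouches, read 10.37, 10.43 and 7.17 on DE 1 to 3 and 9.13, 9.49 and 9.64 on AFE 1 to 3 and differed by 0.10 ± 0.83 and was not called (adjusted p = 0.949); without DE 3 it fell by 0.98 ± 0.21 (adjusted p = 0.0175). Of germ cell genes, 2 of 6 tested rose and 1 fell, at a median of 0.62, against 3 and 1 at 0.63 without DE 3; Ifitm1, a membrane protein, rose by 2.41 ± 0.39 (adjusted p = 0.0101). With single arrays left out, the calls lost, each with its highest adjusted p, were those of Klf4 (0.14 without AFE 2).

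Of the tested mitosis genes 12 of 21 rose, against 9.98% of all genes tested, and no DNA replication gene was called on 6 arrays. Of mitosis genes, 12 of 21 tested rose and 1 fell, at a median of 0.86, against 14 and 1 at 0.91 without DE 3, and the median stayed positive in all 20 other settings, with 3 to 17 members called higher. Ccna2, cyclin A2, was at 6.91, 6.58 and 7.19 on DE 1 to 3 and 8.09, 8.19 and 8.38 on AFE 1 to 3 and rose by 1.33 ± 0.22 (adjusted p = 0.0106). Aurka, a spindle kinase, had levels of 10.46, 10.56 and 10.59 on DE 1 to 3 and 11.90, 11.69 and 11.82 on AFE 1 to 3 and rose by 1.27 ± 0.17 (adjusted p = 0.00528), and the anaphase activator Cdc20 rose by 1.36 ± 0.26 (adjusted p = 0.0178). Gtse1, a G2 phase protein, rose by 1.64 ± 0.26 (adjusted p = 0.00896), with another probe not called. Of DNA replication genes, 0 of 22 tested rose and 0 fell, at a median of 0.25, against 1 and 0 at 0.24 without DE 3, and the sign of that median turned with median scaling; 2 of the 22 had an unadjusted p under 0.05 in limma. The difference between the lists was not tested. Of cell cycle inhibitors and p53 targets, 2 of 18 tested rose and 1 fell, at a median of 0.26, against 4 and 1 at 0.37 without DE 3. In either direction 16.7% of that list was called on 6 arrays, near the 17.9% over all genes. Cdkn2b, a CDK inhibitor that TGF-beta induces, read 8.43, 8.42 and 7.39 on DE 1 to 3 and 5.92, 5.69 and 6.63 on AFE 1 to 3 and fell by 2.00 ± 0.37 (adjusted p = 0.0161). Cdkn1c, an imprinted CDK inhibitor, was at 10.01, 10.05 and 13.45 on DE 1 to 3 and 13.83, 13.65 and 14.47 on AFE 1 to 3; it differed by 2.81 ± 0.89 and was not called (adjusted p = 0.0709), and without DE 3 it rose by 3.95 ± 0.27 (adjusted p = 0.000383). Calls that ended when 1 array was left out, with their highest adjusted p, were those of Cdc20 (0.0716 without DE 1) and Cdkn2b (0.0643 without AFE 2).

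Few metabolic and stress genes were called, and for glycolysis the shares were near those over all genes. Of glycolysis genes, 2 of 20 tested rose and 2 fell, at a median of 0.26, against 3 and 4 at -0.11 without DE 3; Hkdc1, a hexokinase-like enzyme of gut and liver, had levels of 11.45, 11.31 and 11.51 on DE 1 to 3 and 6.90, 7.43 and 7.42 on AFE 1 to 3 and fell by 4.17 ± 0.21 (adjusted p = 0.000231), and Hk1 fell by 1.50 ± 0.27 (adjusted p = 0.014). No cholesterol synthesis gene of 15 tested was called in limma on 6 arrays, where 1 had an unadjusted p under 0.05, and 1 fell without DE 3. Of hypoxia genes, 2 of 15 tested rose and 0 fell, at a median of 0.27, against 5 and 0 at 0.43 without DE 3, with a median that turned negative under median scaling. Calls made up 13.3% of the hypoxia list on 6 arrays, against 17.9% over all genes. The unfolded protein and heat shock list had 0 rises and 1 fall among 18 tested, at a median of -0.04, against 0 and 4 at -0.06 without DE 3; its fall on 6 arrays was Hspb1, a small heat shock protein, which fell by 3.29 ± 0.37 (adjusted p = 0.00284). Immediate early genes fell where they passed: 0 of 15 tested rose and 5 fell, at a median of -0.95, against 0 and 6 at -0.80 without DE 3. Junb, an AP-1 subunit and TGF-beta target, read 7.86, 8.21 and 9.35 on DE 1 to 3 and 5.84, 4.85 and 6.40 on AFE 1 to 3 and fell by 2.78 ± 0.51 (adjusted p = 0.0151), and Jund fell by 1.72 ± 0.34 (adjusted p = 0.0193). Of interferon genes, 4 of 17 tested rose and 1 fell, at a median of 0.48, against 6 and 1 at 0.72 without DE 3. Leaving out 1 array ended calls, here with the highest adjusted p, for Hk1 (0.0605 without AFE 2), Junb (0.0525 without AFE 1) and Jund (0.0753 without DE 1).

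Growth factor genes outside these pathways also differed. Of chemokine and cytokine genes, 5 of 11 tested rose and 1 fell, at a median of 1.07, against 5 and 2 at 0.86 without DE 3. Cxcl12, the ligand of Cxcr4, was at 6.66, 6.55 and 8.42 on DE 1 to 3 and 13.29, 12.68 and 11.24 on AFE 1 to 3 and rose by 5.19 ± 0.67 (adjusted p = 0.00447); without DE 3 it rose by 5.82 ± 0.56 (adjusted p = 0.00118). Csf1, the macrophage colony-stimulating factor, rose by 2.53 ± 0.52 (adjusted p = 0.0217), Pdgfc rose by 1.51 ± 0.35 (adjusted p = 0.0298), and Vegfc, a lymphatic growth factor, fell by 1.58 ± 0.27 (adjusted p = 0.0123). Insulin-like growth factor genes were called more often without DE 3, in that 3 of 14 tested rose and 0 fell, at a median of 0.72, against 10 and 1 at 1.09 without DE 3. Calls over all genes grew as well, from 17.9% on 6 arrays to 29.5% without DE 3. DE 3 lay a median of 1.26 above DE 1 and 2 on that list. Igfbp5, a binding protein, rose by 2.41 ± 0.42 (adjusted p = 0.0136). Igf2, an imprinted growth factor, had levels of 13.69, 13.71 and 15.71 on DE 1 to 3 and 15.76, 15.71 and 15.61 on AFE 1 to 3 and differed by 1.32 ± 0.53 and was not called (adjusted p = 0.129); without DE 3 it rose by 1.93 ± 0.16 (adjusted p = 0.000774). Of imprinted genes, 1 of 15 tested rose and 2 fell, at a median of -0.03, against 5 and 4 at -0.06 without DE 3; Phlda2, a growth-limiting imprinted gene, read 6.95, 6.81 and 6.86 on DE 1 to 3 and 11.05, 11.77 and 12.32 on AFE 1 to 3 and rose by 4.84 ± 0.32 (adjusted p = 0.000663), and Nnat fell by 3.00 ± 0.58 (adjusted p = 0.0174). Dnmt3b, a de novo DNA methyltransferase, was at 14.47, 14.47 and 12.58 on DE 1 to 3 and 12.11, 12.07 and 11.65 on AFE 1 to 3 and fell by 1.90 ± 0.51 (adjusted p = 0.0457). On 5 arrays the calls lost, each with its highest adjusted p, were those of Csf1 (0.0766 without DE 2), Pdgfc (0.0989 without AFE 2), Vegfc (0.055 without DE 2), Igfbp5 (0.0538 without AFE 1), Nnat (0.0715 without AFE 2) and Dnmt3b (0.14 without DE 1).

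The largest rises beyond these lists were in enzymes, receptors and growth factors. Ces1d, a carboxylesterase, had levels of 4.60, 4.66 and 4.51 on DE 1 to 3 and 9.80, 9.82 and 11.60 on AFE 1 to 3 and was at least 39.5-fold higher in AFE (adjusted p = 0.00116). Scara3, a scavenger receptor, read 5.12, 5.15 and 6.54 on DE 1 to 3 and 10.72, 10.73 and 11.63 on AFE 1 to 3 and rose by 5.42 ± 0.45 (adjusted p = 0.00116). Gdnf, a neurotrophic factor, was at 7.66, 7.68 and 4.78 on DE 1 to 3 and 11.94, 11.97 and 12.11 on AFE 1 to 3, with DE 3 below the other DE arrays, and rose by 5.30 ± 0.75 (adjusted p = 0.00621). Adamts19, a metalloprotease, rose by 4.87 ± 0.23 (adjusted p = 0.000231), and Cavin2, a coat protein of caveolae, was at least 20.2-fold higher in AFE (adjusted p = 0.000372). Both groups of arrays were separate for each of these genes. Among the largest falls, Pga5, a pepsinogen, had levels of 15.30, 15.50 and 13.52 on DE 1 to 3 and 5.38, 5.76 and 6.99 on AFE 1 to 3 and fell by 8.73 ± 0.62 (adjusted p = 0.000717). Foxq1, a forkhead factor, read 13.74, 14.12 and 11.80 on DE 1 to 3 and 4.69, 5.07 and 5.76 on AFE 1 to 3 and fell by 8.05 ± 0.61 (adjusted p = 0.000901). Ctsc, a lysosomal protease, was at 12.58, 12.55 and 10.14 on DE 1 to 3 and 4.55, 4.48 and 4.48 on AFE 1 to 3 and was at least 87.8-fold lower in AFE (adjusted p = 0.00135). Srgn, the proteoglycan serglycin of secretory granules, had levels of 11.23, 10.86 and 11.98 on DE 1 to 3 and 4.90, 4.69 and 4.40 on AFE 1 to 3 and was at least 66.7-fold lower in AFE (adjusted p = 0.000231). In Pga5, Foxq1 and Ctsc the level of DE 3 was below that of DE 1 and 2 and far above AFE, while in Srgn DE 3 was the highest. Without DE 3, Pga5 fell by 9.35 ± 0.46 (adjusted p = 0.000144) and Srgn was at least 55.5-fold lower in AFE (adjusted p = 5.9e-05).

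DE 3 itself differed from DE 1 and 2 in genes of several kinds, and these differences rest on 1 array and have no test. Apart from endothelial genes, it was high for Gap43, a neuronal growth cone protein, which read 4.53, 4.67 and 10.62 on DE 1 to 3 and 5.57, 5.90 and 5.53 on AFE 1 to 3. Rsad2, an interferon-induced enzyme, was at 4.45, 4.63 and 10.47 on DE 1 to 3 and 5.85, 5.73 and 4.65 on AFE 1 to 3, and Aplnr, the apelin receptor of mesoderm, 5.54, 6.04 and 11.31 on DE 1 to 3 and 5.36, 6.07 and 5.56 on AFE 1 to 3. In all 3 the DE 3 level was above every other array. Among the lowest relative to DE 1 and 2 was Grp, gastrin-releasing peptide, with 9.62, 9.50 and 4.49 on DE 1 to 3 and 5.52, 5.09 and 4.51 on AFE 1 to 3. Dgkk, a diacylglycerol kinase, had levels of 12.53, 12.91 and 8.57 on DE 1 to 3 and 7.88, 7.44 and 8.20 on AFE 1 to 3, and Ppp2r2b, a phosphatase subunit, 8.56, 8.48 and 4.51 on DE 1 to 3 and 8.73, 9.27 and 8.91 on AFE 1 to 3. Dgkk and Grp on DE 3 were near AFE, and Ppp2r2b on DE 3 was below every other array. Gap43 differed by -0.94 ± 1.52 and was not called (adjusted p = 0.707), and without DE 3 it was at least 1.51-fold higher in AFE (adjusted p = 0.0101). Dgkk and Grp were not called on 6 arrays, and without DE 3 Dgkk fell by 4.89 ± 0.27 (adjusted p = 0.000183) and Grp fell by 4.56 ± 0.31 (adjusted p = 0.000376). Rsad2, Aplnr and Ppp2r2b were called in neither fit.

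**Figure D5:**
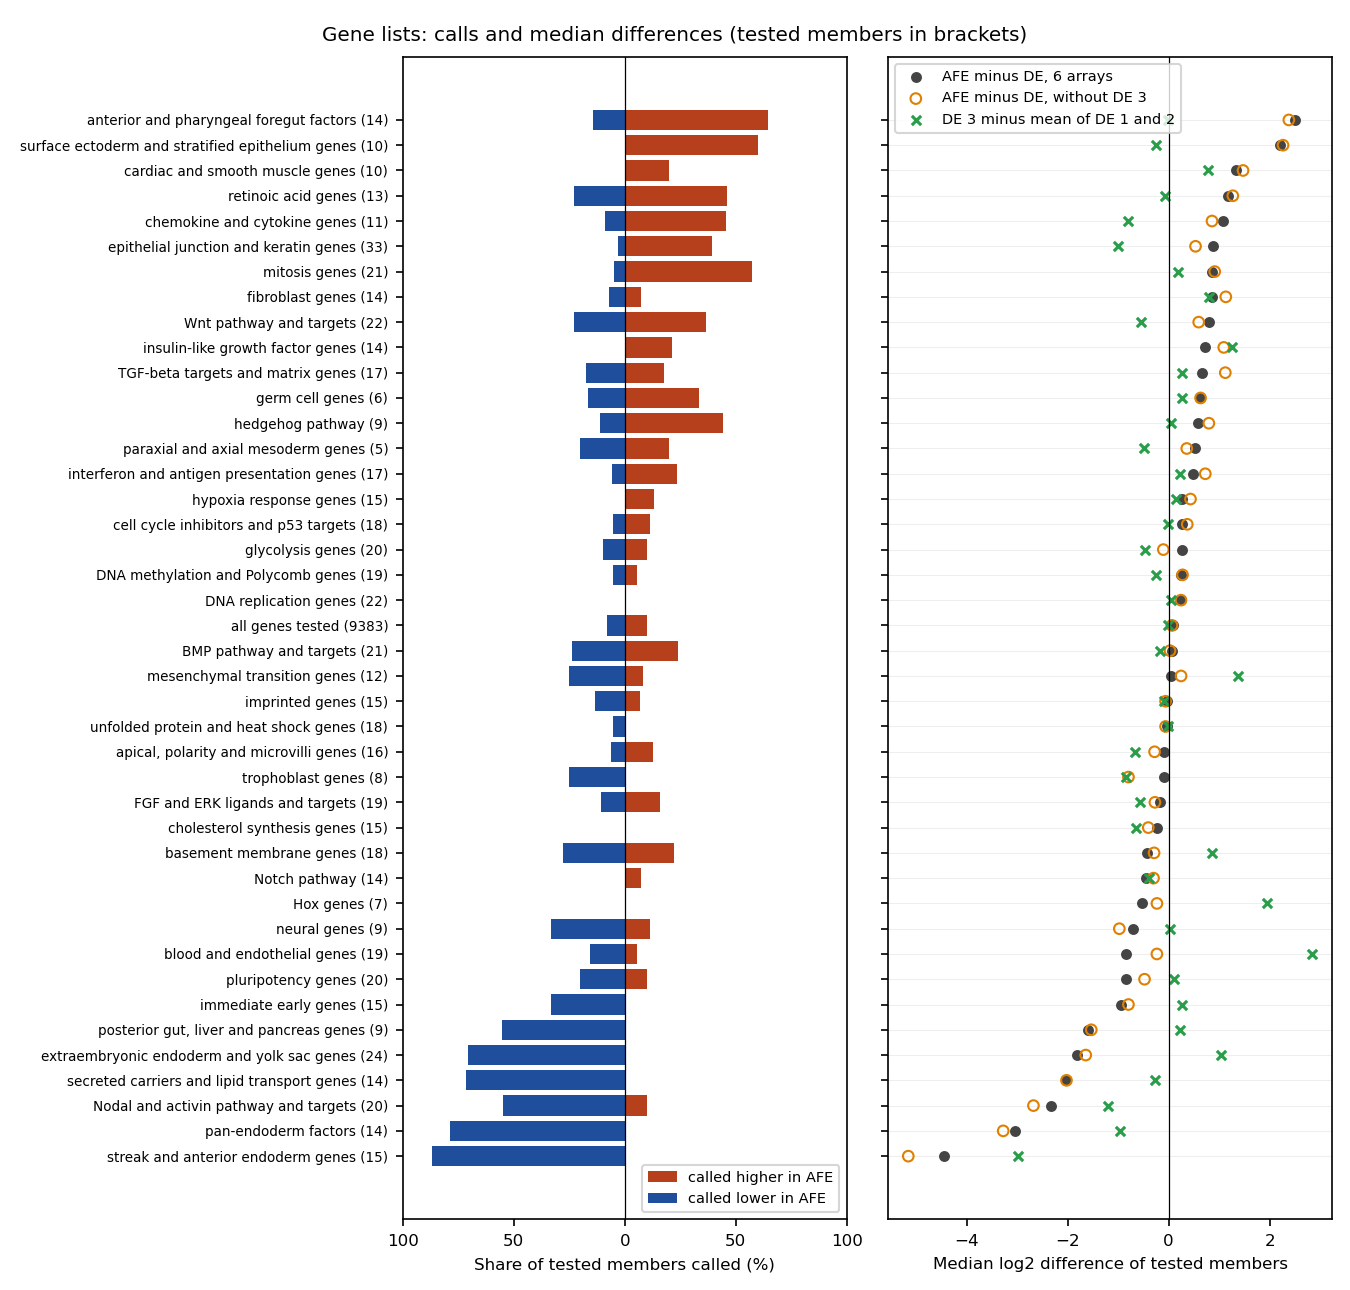
For each gene list, the share of tested members called higher or lower in AFE (left panel, % of tested members, 6 arrays) and the median log2 difference (right panel) of AFE minus DE on 6 arrays, without DE 3, and of DE 3 minus the mean of DE 1 and 2. Foregut factors lie at the top with 9 rises of 14 and streak and anterior endoderm genes at the bottom with 13 falls of 15, and DE 3 stands highest on blood and endothelial genes.

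Over the genes named by rule, 131 of 208 were called on 6 arrays and 130 of those were called in the same direction without DE 3, Afp being the exception. The foregut factors Pax1, Sox2, Nkx2-3, Isl1 and Irx2, the falls of Sox17, Gata4, Gata6, Foxa2, Hhex and Hnf4a, those of Nodal, Lefty1, Lefty2, Gsc, Lhx1, Eomes and Cer1, and the rises of Id1, Id2, Id4, Shh and Cxcl12 were among the calls that held without DE 3. Some of these ended with another array left out. Lefty2 and Cer1 lost the call without any single array other than DE 3. Outside this set, so did Tdgf1, Meis2, Grhl2, Zeb1, Klf4, Dnmt3b, Fgfr1, Loxl1 and Phc1. Nodal, Sox17 and Nkx2-3 lost it without DE 1, DE 2, AFE 1 or AFE 2. Id1 lost it without DE 1, DE 2 or AFE 2, and Foxa2 without AFE 2. The falls of Cxcr4, Otx2, Fgf8 and Vim and the rises of Irx3, Igf2, Col18a1 and Cdkn1c were not called on 6 arrays and were called with DE 3 left out. All 8 were also called on 6 arrays when arrays were weighted by their spread. Such weights count an array that stands off less, so that setting may repeat leaving out DE 3 and is no separate support. It called 2744 genes higher and 2145 lower.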

How the data were processed

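Total RNA (500 ng a sample, per the labels) was amplified and hybridised to Illumina mouse bead arrays. The deposited intensity values are linear bead summaries per probe that were not normalized between arrays, per the file headers. The detection p-value deposited with each intensity sets it against negative control beads, per the file headers. The log2 values of the authors' processed table, made by a method not stated, served as an alternative. The number of arrays limits the precision.

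In R 4.3.3, neqc of limma 3.58.1 was run on the 6 arrays, with the background taken from detection p-values, an offset of 16, quantile normalization and log2. Probes needed detection, at a p under 0.05, on at least 3 of 6 arrays, which left 13682, of which 12885 have a gene symbol. Over all 25697 probes 23978 have 1 symbol, 0 have several and 1719 have none; 23962 matched a current gene through the Entrez ID. A gene was read from its brightest probe, so 9383 genes were tested, and 2504 of these have several detected probes. The 2-group model used lmFit and eBayes, with Benjamini-Hochberg adjustment over the 9383 genes, and a call needs an adjusted p under 0.05. The fit without DE 3 kept the same genes. All 6 arrays shared 1 slide, DE in positions A to C and AFE in F to H, so position and group cannot be told apart.

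The members, gene lists and tests were chosen with earlier results of these data known. Named genes were the 12 most raised and 12 most lowered calls of at least 2-fold whose groups were apart, 8 each without DE 3, up to 4 called members a list and up to 2 called without DE 3 alone, 10 genes each with DE 3 farthest above or below DE 1 and 2, and landmark genes. Of 208 such genes 45 had several probes, and in 14 another probe was not called alike. Genes too dim to test, and Krt15, were named after their values were seen. In 1 list a symbol that pointed to another gene was corrected after the first fit. The fit was checked on simulated data. Alternatives changed the background (with normexp and an offset of 50 where no detection p-value was used), scaling, filter, probe rule, moderation, array weights, arrays included and replicate block, or used the authors' values; a filter of at least 2 arrays and leaving out DE 3 with AFE 3 were added after seeing the data. Figures used matplotlib 3.10.9. Promoters came from RefSeq on GRCm38.p6.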

Additional observations from a re-analysis of the deposited data

How the results depend on the processing

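The numbers of genes called, 936 higher and 744 lower, kept within 1.5 times of the main count with no background correction, a background without detection p-values, cyclic loess, all 9 arrays, both other filters on dim probes, the mean of a gene's probes and an intensity trend with robust moderation. Median scaling gave 382 higher and the authors' values 620; array weights gave 2744 higher and 2145 lower, and weights without DE 3 gave 4734 calls in either direction instead of 2771. With the replicate block 545 were called higher on 6 arrays, and the block without DE 3 gave 4254 calls in either direction. Same-numbered arrays did not deviate together (correlations of -0.020, 0.0035 and 0.0023), so the numbers were not taken as pairs. With 1 array left out the counts ran from 247 to 1506 higher and from 250 to 1265 lower. With DE 3 and AFE 3 both out, chosen after seeing the data, they were 2464 and 1962. Of 131 named genes called, 69 were called alike in all settings that gave a value.

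Called differences of the other sign than on 6 arrays were few. Gap43 ran from -1.98 to 1.09 with 1 array left out and was 1.23 with DE 3 and AFE 3 out. Gata3 ran from -0.98 to 0.65, was -0.94 with array weights and -1.09 with both out. Tgfbi ran from -1.39 to 1.45 and was 1.15 with both out. Rsad2 was 1.34 with both out. In these genes DE 3 was the array farthest from the other DE arrays. The single slide, 3 arrays a group and the nearness of DE 1 to DE 2 limit the precision, and genes near background carry bounds only.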

Other observations

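Paraxial and axial mesoderm genes had 1 rise and 1 fall among 5 tested, at a median of 0.52, against 2 and 1 at 0.36 without DE 3. Meox1, a homeobox factor of somites, was at least 3.94-fold lower in AFE (adjusted p = 0.00789). DNA methylation and Polycomb genes had 1 rise and 1 fall among 19 tested, at a median of 0.25, against 1 and 2 at 0.27 without DE 3. Phc1, a Polycomb subunit, rose by 0.63 ± 0.17 (adjusted p = 0.045), with another probe not called. Its call held without DE 3 and ended without any other single array (highest adjusted p = 0.144, without DE 1). Hesx1, a homeobox factor of anterior endoderm and forebrain, had levels of 7.65, 7.35 and 5.22 on DE 1 to 3 and 4.67, 4.76 and 4.56 on AFE 1 to 3. It differed by -2.08 ± 0.60 and was not called (adjusted p = 0.0543), and without DE 3 it was at least 4.68-fold lower in AFE (adjusted p = 0.000305). Foxc1, a forkhead factor of mesoderm, had levels of 4.51, 4.87 and 7.61 on DE 1 to 3 and 8.51, 7.82 and 7.01 on AFE 1 to 3. It differed by 2.12 ± 0.82 and was not called (adjusted p = 0.119), and without DE 3 it was at least 6.65-fold higher in AFE (adjusted p = 0.00391). Each adjusted p is of limma.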
